A study of Mus musculus with 12 samples.

Results

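Potassium channel genes were followed in lower motor neurons of mice with an ALS-linked change in the RNA-binding protein TDP-43. Members were all entries of the count table whose symbol begins with Kcn, other than Kcnab3, with a mean of 20 or more counts over the 12 libraries. They numbered 71 of 93 Kcn entries and of 25965 entries in all, and all 71 were among the 16338 genes tested. The lowest members were Kcne3, Kcns2 and Kcne2, with means of 21.3, 22.0 and 22.5 counts, and the highest entries left out were Kcnh8, Kcnf1 and Kcna10, with 10.6, 10.4 and 7.1 counts. Of the 22 entries left out, 7 had no count in any library. The motor neurons were cut by laser from the lumbar cord of C57BL/6 mice aged 5 months. Their genotypes were Q331K/Q331K (homozygotes), Q331K/+ (heterozygotes) and +/+ (wild type), where Q331K is an amino acid change knocked in to the mouse TDP-43 gene, and each genotype had 4 libraries. The labels give no other allele or treatment. They leave unsaid if the 4 libraries of a genotype are 4 animals, and all p-values therefore measure spread between libraries, which may be technical.

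Potassium channels let potassium leave the cell and so pull the membrane back towards rest. Voltage-gated (Kv) subunits end each action potential and set the gap before the next, calcium-activated and sodium-activated channels add the slower afterpotentials, and inward rectifiers (Kir) and tandem-pore (K2P) channels hold the resting potential. Motor neurons are large cells whose firing rate is shaped by these currents, and Kv1 channels flank the nodes along their myelinated axons. Auxiliary subunits form no pore of their own and alter the gating or transport of the subunits that do. Loss or gain of several of these genes causes epilepsy, ataxia or episodic weakness in people.

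The pore-forming members share a short run of codons for the narrowest part of the pore, the selectivity filter. It was searched for as the potassium channel signature in coding sequences of GENCODE M21 (GRCm38): a codon for threonine or serine, any codon, then codons for glycine, tyrosine or phenylalanine, and glycine. All 59 pore-forming members held it, as did 0 of the 12 auxiliary members and 2.64% of 21764 mouse genes with a complete coding sequence. It occurred once in 51 members and at 2 places in 8, all of them K2P subunits, whose chains each carry a pair of pore loops. Kcnk1 was the K2P member with a single match. The following stretches come from members that recur in the results. They run 5′ to 3′ on the coding strand, with the 5 filter codons in capitals and 15 bases on either side.
Kcna1: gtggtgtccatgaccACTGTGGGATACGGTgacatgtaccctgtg
Kcng4: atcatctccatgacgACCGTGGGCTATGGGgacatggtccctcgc
Kcnj14: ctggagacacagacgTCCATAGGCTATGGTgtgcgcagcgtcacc
Kcnk1: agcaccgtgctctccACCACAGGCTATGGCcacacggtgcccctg
Kcnh2: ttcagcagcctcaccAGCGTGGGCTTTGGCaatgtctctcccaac

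In Kcna1 and Kcng4 the filter was followed by a codon for aspartate (gac), whereas Kcnj14, Kcnk1 and Kcnh2 had other codons there. Kcnh2 carried a phenylalanine codon (TTT) where the other 4 carried a tyrosine codon (TAT or TAC). Over all 59 pore-forming members, 46 had a tyrosine codon at that place in a match and 13 had phenylalanine codons only. A match is a run of codons and no measure of channel function.

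Total counts ran from 60886825 to 83504446 per library, and levels are given as CPM, that is relative to each library's scaled total. Homozygote replicate 1 and heterozygote replicate 1 stood apart from the other 10 libraries. The summed CPM of 10 inhibitory interneuron markers was 8.57 in the first and 14.5 in the second, against 421 to 893 in the others, and 8 of the 10 lay below the range of the others in both. Gad2, which makes GABA, was at 0 in both, and Slc6a5, the glycine transporter, at 0 in homozygote replicate 1. Excitatory interneuron markers summed to 103 and 91.7 CPM, against 230 to 398 CPM. Most of the sum in these libraries came from Cck, which moved the opposite way (92.6 and 87.5 CPM, others 26.9 to 74.6). Slc17a6 was nearly lost, with 4.52 CPM in homozygote replicate 1 and 0.563 CPM in heterozygote replicate 1 (others 160 to 323). Among the 10 excitatory markers, 4 lay below the range of the others in both, and only Cck lay above it. Motor neuron markers, which were found in every library, summed to 51100 and 50200 CPM, against 20700 to 33900 CPM, and 11 of the 16 tested lay above the range of the others in both. Over genotypes, the inhibitory sums were 8.57 to 659 CPM in homozygotes, 14.5 to 838 CPM in heterozygotes and 421 to 893 CPM in wild type. The summed astrocyte markers were at 1770 and 1660 CPM, against 1720 to 2420 CPM in the others, and the oligodendrocyte markers at 1860 and 1410 CPM, against 1100 to 3220 CPM. The astrocyte sum joins opposite moves of its 2 largest markers. Aldoc had 511 and 467 CPM (791 to 1280 in the others), while S100b had 1010 and 979 CPM (594 to 737 in the others). Of the 14 astrocyte markers, 2 lay above and 1 below the range of the others in both. In such bulk material, fewer cells of a type and less RNA per cell cannot be told apart.

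The genotypes overlapped in the summed level of the members, which varied least in wild type. It was 4820 ± 237 CPM in homozygotes, 4820 ± 402 CPM in heterozygotes and 4850 ± 27.3 CPM in wild type (SD, n = 4 each), or 0.483% of all counts over the 12 libraries. By mean CPM, 10 members were at 100 or more, 27 between 10 and 100, 22 between 1 and 10, and 12 below 1. A count was found in every library for 53 members, and 18 were at 0 in at least 1 library.

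**Figure D1:**
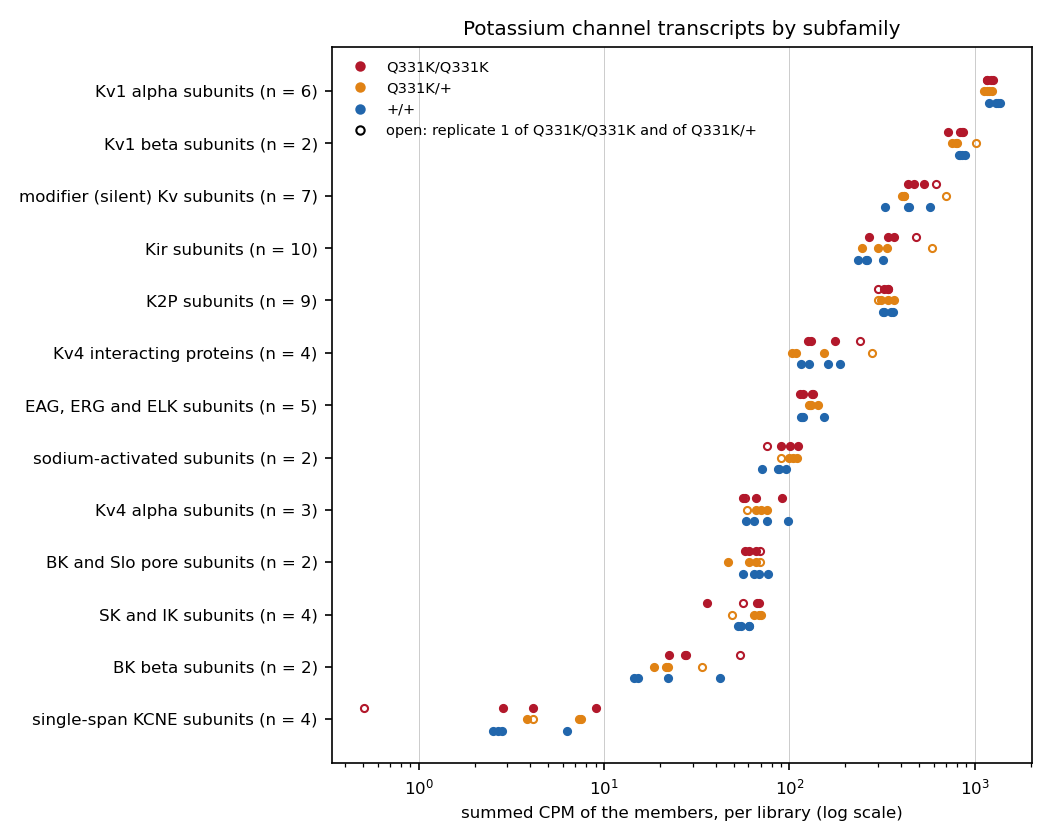
Summed CPM of the members of 13 subfamilies (log axis, uncorrected for length), with 1 point per library and open points for replicate 1 of each mutant genotype. Kv1 alpha subunits lie at the top and KCNE subunits at the bottom, the genotypes overlap in every subfamily drawn, and the open points stand at the upper end for Kir, modifier and Kv4 interacting subunits.

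Per kilobase of exon, Kcna1 was the most abundant member, at 245 ± 11.8 CPM per kb in wild type (SD, n = 4), and ranked 244 of 16082 genes with a known exon length. Among those that followed were Kcng4 at 94.1 ± 26.6, Kcnab2 at 92.7 ± 4.88 and Kcnk1 at 85.6 ± 13.7 CPM per kb in wild type. Kcnj14 stood at 51.0 ± 16.4, Kcna2 at 45.4 ± 6.41 and Kcnab1 at 38.2 ± 4.07 CPM per kb. Of the 19 neighbouring pairs compared among the leading members, only Kcna1 and the next in order, Kcng4, had ranges over the 12 libraries that did not overlap. Members further apart could separate, as Kcnab2 (72.5 to 96.6 CPM per kb) did from Kcna2 (31.0 to 51.8 CPM per kb) over the 12 libraries.

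Kv1 alpha subunits open near threshold and damp repeated firing. Kcna1 (Kv1.1) had 1030, 1080, 1010 and 1030 CPM in homozygotes, 1010, 1090, 954 and 992 CPM in heterozygotes, and 1020, 1130, 1140 and 1120 CPM in wild type. Kcna2 (Kv1.2), its usual partner, had 109, 150, 123 and 142 CPM in homozygotes, 143, 119, 130 and 146 CPM in heterozygotes, and 132, 173, 183 and 153 CPM in wild type. The mutant libraries overlapped wild type for both genes, through wild type replicate 1, which was the lowest wild type library for each. Kcna1 varied least of the members at 100 CPM or more, with a coefficient of variation of 4.82% in wild type. Kcna6 (Kv1.6) averaged 35.8 ± 6.16 CPM in homozygotes, 32.8 ± 7.41 CPM in heterozygotes and 29.8 ± 9.57 CPM in wild type, but 39.5% of its exon length overlaps a gene on the other strand, and the kits kept no strand. Kcna3, Kcna4 and Kcna5 were at 4.28 CPM or less in every library.

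Kv1 beta subunits bind the inside of Kv1 channels, where Kcnab2 (Kv beta 2) aids their transport to the axon and Kcnab1 (Kv beta 1) makes them inactivate. Kcnab2 had 405, 516, 462 and 506 CPM in homozygotes, 520, 527, 497 and 497 CPM in heterozygotes, and 539, 482, 539 and 509 CPM in wild type. Kcnab1 had 423, 338, 252 and 361 CPM in homozygotes, 486, 276, 297 and 257 CPM in heterozygotes, and 342, 367, 285 and 319 CPM in wild type. Kcnab2 was lowest in homozygote replicate 1, at 405 CPM, and at 520 CPM in heterozygote replicate 1, against 462 to 539 CPM in the other 10 libraries. Kcnab1 was highest in replicate 1 of both mutant genotypes, above every other library.

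Kv2 alpha subunits carry the slow delayed rectifier and gather at synapses on motor neuron cell bodies, and the modifier subunits form channels only together with them. Kcng4 (Kv6.4), a modifier, had 549, 433, 369 and 397 CPM in homozygotes, 635, 346, 347 and 347 CPM in heterozygotes, and 492, 357, 248 and 335 CPM in wild type. Its replicate 1 was the highest library of each genotype. Kcns3 (Kv9.3), another modifier, had 27.8, 73.5, 52.3 and 53.7 CPM in homozygotes, 35.0, 48.4, 48.7 and 42.3 CPM in heterozygotes, and 53.2, 48.8, 65.8 and 92.8 CPM in wild type. All heterozygote libraries lay below all wild type libraries for Kcns3, the closest pair being 48.7 and 48.8 CPM. Kcnb2 (Kv2.2), a partner of the modifiers, averaged 18.6 ± 7.33 CPM in homozygotes, 17.6 ± 5.29 CPM in heterozygotes and 15.6 ± 2.61 CPM in wild type (SD, n = 4 each). Per kilobase of exon in wild type, Kcng4 stood at 94.1 ± 26.6 CPM against 2.01 ± 0.336 for Kcnb2.

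Kv3 alpha subunits open only at depolarised potentials and close fast, which allows high firing rates. Kcnc1 (Kv3.1) had 44.0, 162, 163 and 139 CPM in homozygotes, 45.4, 201, 118 and 202 CPM in heterozygotes, and 131, 205, 216 and 205 CPM in wild type. Replicate 1 was the lowest of each genotype for Kcnc1, and in both mutants it lay far below the other libraries. Kcnc2 (Kv3.2) was nearly absent from the same libraries, at 0.0145 CPM in homozygote replicate 1 and 0 in heterozygote replicate 1, against 12.9 to 38.5 CPM in the other 10. Kcnc4 (Kv3.4) went the other way, with 53.9 CPM in homozygote replicate 1, 73.2 CPM in heterozygote replicate 1 and 58.9 CPM in wild type replicate 1, against 20.4 to 42.9 CPM in the remaining libraries.

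Kv4 alpha subunits give the transient A-type current of dendrites, and the Kv4 interacting proteins, calcium sensors encoded by Kcnip genes, bring them to the surface. Kcnd1 (Kv4.1) averaged 44.1 ± 7.58 CPM in homozygotes, 46.0 ± 3.51 CPM in heterozygotes and 42.3 ± 8.41 CPM in wild type (SD, n = 4 each). Kcnd2 (Kv4.2) had 7.43 CPM in homozygote replicate 1 and 3.97 CPM in heterozygote replicate 1, against 13.2 to 37.2 CPM in the other 10 libraries. The sensors Kcnip1 and Kcnip4 were high in those libraries instead. There Kcnip1 had 145 and 177 CPM (58.6 to 113 in the others) and Kcnip4 had 90.6 and 101 CPM (32.5 to 69.7). Kcnip3, also known as the transcriptional repressor DREAM, averaged 6.38 ± 1.66 CPM in homozygotes, 3.63 ± 1.79 CPM in heterozygotes and 5.94 ± 2.29 CPM in wild type.

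Kv7 subunits form the M current, a slow brake on excitability. Kcnq3 (Kv7.3) was scarce, at 0.0435 to 1.59 CPM. Kcnq5 (Kv7.5) had 17.1, 9.24, 5.92 and 2.26 CPM in homozygotes, 13.6, 4.95, 4.27 and 5.33 CPM in heterozygotes, and 4.02, 4.37, 3.18 and 2.46 CPM in wild type. For Kcnq5, 3 of the 4 homozygote libraries and 3 of the 4 heterozygote libraries lay above every wild type library. The exceptions were homozygote replicate 4, the lowest of all 12, and heterozygote replicate 3, just inside the wild type range.

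The EAG and ERG subunits are voltage-gated relatives of Kcnh2 (ERG1), the channel of a cardiac long QT syndrome. Kcnh2 averaged 70.2 ± 12.4 CPM in homozygotes, 73.8 ± 2.50 CPM in heterozygotes and 67.7 ± 12.6 CPM in wild type, and Kcnh1 (EAG1) averaged 28.7 ± 7.30, 29.0 ± 9.22 and 30.1 ± 8.30 CPM in the same genotypes (SD, n = 4 each). For both genes the genotypes overlapped, and the means differed by less than the SD in homozygotes and in wild type. The heterozygote libraries of Kcnh2 were closer together, at 70.7 to 76.3 CPM. Kcnh5 (EAG2) had 17.3 CPM in homozygote replicate 1 and 18.2 CPM in heterozygote replicate 1, against 2.38 to 12.8 CPM in the other 10. Kcnh7 (ERG3) had 4.32 and 1.82 CPM there, against 13.1 to 25.8 CPM.

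KCNE subunits cross the membrane once and alter the gating of Kv channels. All 4 members were scarce, with a summed level of 4.13 ± 3.58 CPM in homozygotes, 5.71 ± 2.00 CPM in heterozygotes and 3.58 ± 1.83 CPM in wild type. Kcne4 had 0, 120, 424 and 169 counts in homozygotes, 0, 23, 257 and 479 counts in heterozygotes, and 0.480 to 3.87 CPM in wild type. Kcne2, a partner of Kcnh2 and Kcnq1 in heart, had 0.16, 0, 0.942 and 0.0263 CPM in homozygotes, 0, 1.24, 1.5 and 0 CPM in heterozygotes, and 0 in all 4 wild type libraries. Most reads of Kcne2 thus came from 3 of the 12 libraries. Kcne1l averaged 1.03 ± 0.467 CPM in homozygotes, 1.94 ± 1.69 CPM in heterozygotes and 1.71 ± 0.540 CPM in wild type.

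Among channels opened by calcium, Kcnma1 encodes the BK pore, which speeds repolarisation, and averaged 57.7 ± 7.15 CPM in homozygotes, 57.2 ± 9.83 CPM in heterozygotes and 61.6 ± 8.30 CPM in wild type. Kcnmb4, the beta subunit of neuronal BK channels, had 54.4, 18.8, 25.8 and 27.1 CPM in homozygotes, 33.6, 16.0, 18.2 and 14.9 CPM in heterozygotes, and 38.0, 16.2, 12.8 and 11.6 CPM in wild type. Replicate 1 was again the highest of each genotype, and genes on the other strand overlap 20.8% and 10.7% of the exon length of Kcnmb4. Kcnmb2, an inactivating beta subunit, was at 0 in homozygote replicate 1 and heterozygote replicate 1, while other mutant libraries held up to 6.02 CPM. Kcnu1, a pore subunit known from sperm, averaged 5.62 ± 2.31 CPM in homozygotes, 3.38 ± 1.11 CPM in heterozygotes and 4.72 ± 1.04 CPM in wild type.

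The SK subunits carry the medium afterhyperpolarisation that limits motor neuron firing. Kcnn2 (SK2) averaged 36.4 ± 8.98 CPM in homozygotes, 38.7 ± 4.11 CPM in heterozygotes and 34.6 ± 3.38 CPM in wild type (SD, n = 4 each). Kcnn1 (SK1) averaged 18.1 ± 7.03, 20.3 ± 6.73 and 18.8 ± 2.70 CPM in the same genotypes, and Kcnn3 (SK3) was at 2.08 CPM or less throughout. The sodium-activated subunit Kcnt1 (Slack) averaged 87.5 ± 16.4 CPM in homozygotes, 93.3 ± 11.7 CPM in heterozygotes and 77.9 ± 13.7 CPM in wild type, with replicate 1 the lowest of each genotype. Its relative Kcnt2 (Slick) averaged 7.05 ± 1.24, 7.99 ± 3.46 and 7.26 ± 4.16 CPM in homozygotes, heterozygotes and wild type.

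Kir subunits pass current best near rest. Kcnj14 (Kir2.4), described in rat in cranial motor neurons, had 310, 218, 206 and 127 CPM in homozygotes, 426, 170, 193 and 124 CPM in heterozygotes, and 198, 139, 95.2 and 118 CPM in wild type. Replicate 1 was the highest of each genotype, and both mutant replicates 1 lay above every other library. Kcnj3 (GIRK1), opened by G proteins, averaged 65.7 ± 9.13 CPM in homozygotes, 61.6 ± 11.4 CPM in heterozygotes and 57.3 ± 10.7 CPM in wild type, with 31.1% of its exon length overlapped by a gene on the other strand. Kcnj9 (GIRK3) averaged 13.7 ± 4.58 CPM in homozygotes, 12.9 ± 2.46 CPM in heterozygotes and 10.1 ± 1.88 CPM in wild type. Kcnj10 (Kir4.1), the channel by which glia take up potassium, had 18.5, 20.3, 18.9 and 13.6 CPM in homozygotes, 11.0, 11.2, 10.6 and 15.1 CPM in heterozygotes, and 9.92, 13.0, 32.4 and 20.8 CPM in wild type. Wild type replicate 3, the highest for Kcnj10, was also the library with the highest summed astrocyte (2420 CPM) and oligodendrocyte markers (3220 CPM), and the part of glial RNA in this result was not tested.

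K2P subunits are open at rest. Kcnk1 (TWIK1) had 87.4, 152, 159 and 185 CPM in homozygotes, 81.3, 205, 151 and 201 CPM in heterozygotes, and 152, 188, 197 and 227 CPM in wild type. Kcnk3 (TASK1), an acid-sensitive leak channel of motor neurons, had 115, 74.1, 82.9 and 68.6 CPM in homozygotes, 112, 80.8, 80.9 and 59.5 CPM in heterozygotes, and 108, 41.2, 47.4 and 43.9 CPM in wild type. Kcnk1 was lowest, and Kcnk3 highest, in replicate 1 of each genotype. For Kcnk3, wild type spanned 41.2 to 108 CPM and overlapped both mutant genotypes. The other 3 wild type libraries, at 41.2 to 47.4 CPM, lay below every mutant library. That split needs wild type replicate 1 set aside after its value was seen, with replicate 1 of both mutants kept. The share of all genes that split in this way was not taken, so it is no result about Kcnk3. With all libraries, the log2 difference of Kcnk3 from wild type was 0.51 in homozygotes (edgeR 95% interval -0.16 to 1.17). In heterozygotes it was 0.47 (interval -0.19 to 1.14). Kcnk5 (TASK2) had 1.52, 0, 0 and 0.987 CPM in homozygotes, 0.0141, 0, 0.03 and 0 CPM in heterozygotes, and 1.14, 0, 0.149 and 0 CPM in wild type.

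**Figure D2:**
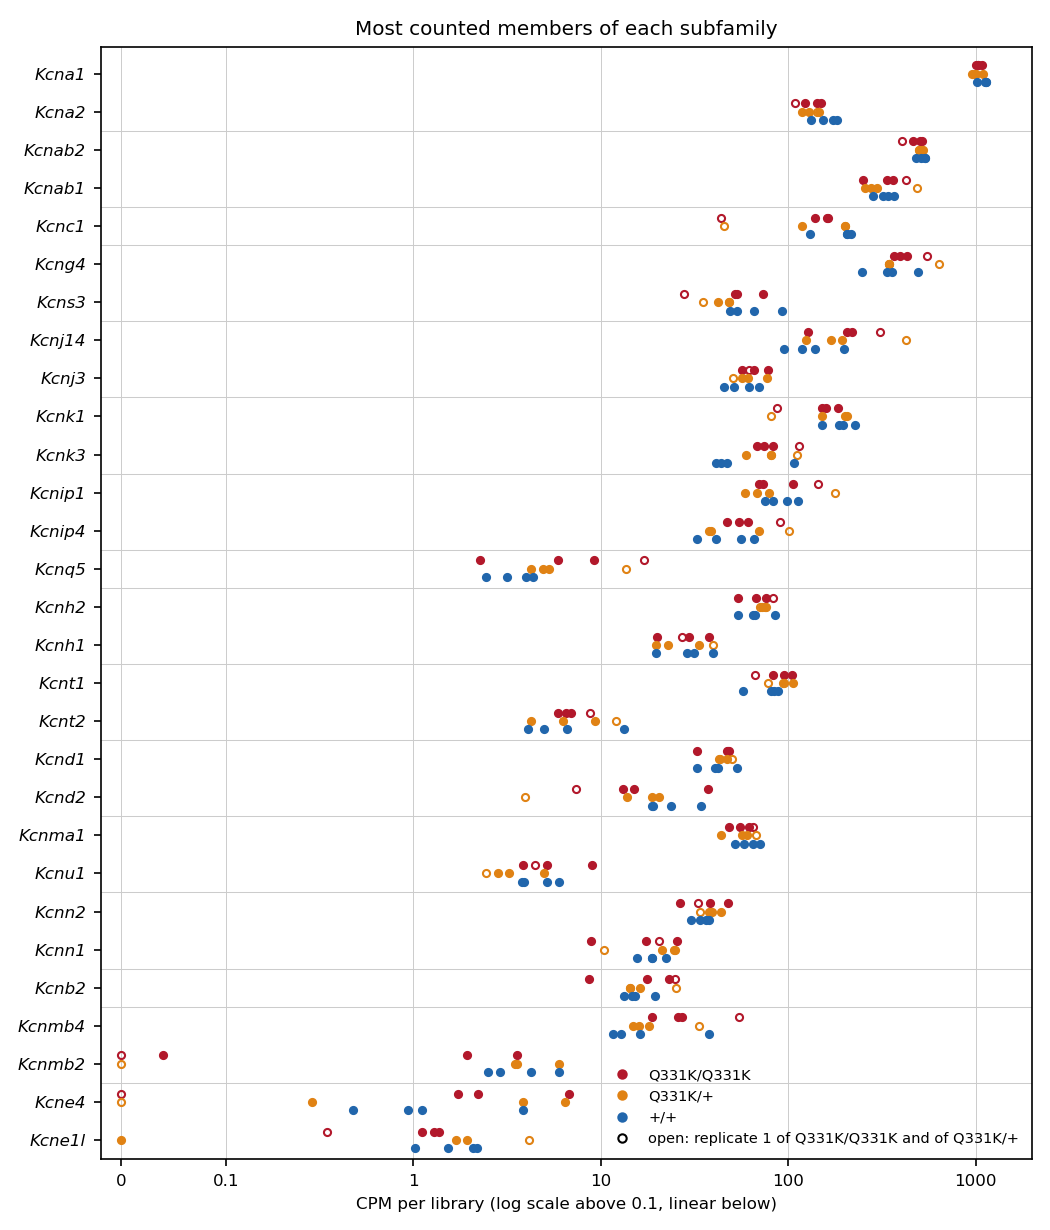
CPM per library of 29 members with the most counts in their subfamily, up to 2 each (log axis above 0.1, linear below), with open points for replicate 1 of each mutant genotype. Kcna1 lies between 954 and 1140 CPM in all 12 libraries, whereas the open points leave the others at the high end for Kcng4 and Kcnj14 and at the low end for Kcnc1 and Kcnk1.

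The first comparison, of homozygotes with wild type, asked whether channel transcripts differ when both copies are mutant. No member passed in edgeR at an adjusted p below 0.05 (0 of 71, where 0.00612% of all 16338 genes passed), and DESeq2 and limma-voom also called 0 members (0.0798% and 0.00612% of all genes). At an unadjusted p below 0.05 edgeR gave 3 members, or 4.23%, against 4.82% of all genes. They were Kcne2, Kcnq5 and Kcna2. Of the members, 38 were higher and 33 lower, with a median log2 difference of 0.06, where the median of all genes was 0.0. In no member did the homozygote libraries lie wholly above or wholly below wild type (1.29% and 2.12% of all genes did).

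Kcnq5 averaged 8.63 ± 6.32 CPM in homozygotes and 3.51 ± 0.858 CPM in wild type (SD, n = 4 each). On the log2 scale it differed by 1.30 (95% interval 0.11 to 2.48, SE 0.55, edgeR adjusted p = 0.986), and by 0.73 without homozygote replicate 1 and heterozygote replicate 1. Kcna2 averaged 131 ± 18.3 CPM in homozygotes and 160 ± 22.6 CPM in wild type. It differed by -0.29 (SE 0.13, interval -0.56 to -0.01, adjusted p = 0.986 in edgeR), or -0.21 without the same libraries. Kcne2 had 72 counts over the homozygotes and 0 over wild type, at least 25.1-fold higher with 3 counts over the group taken as the floor (adjusted p = 0.986 in edgeR). Homozygote replicate 3 alone, at 0.942 CPM, held most of those counts.

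Among the next in order was Kcnj14, at a log2 difference of 0.65 (SE 0.37, interval -0.16 to 1.45, adjusted p = 0.986 in edgeR). Its value was 0.42 without homozygote replicate 1 and heterozygote replicate 1. Among the members with the most counts, the intervals were narrow for Kcna1 (-0.22 to 0.05) and Kcnab2 (-0.31 to 0.05) and wider for Kcnab1 (-0.37 to 0.50) and Kcng4 (-0.23 to 0.80). In 27 of 71 members, or 38.0%, the interval lay within a fold of 2 either way, against 57.3% of all genes, so for most members a change of that size was not excluded at this depth and spread.

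Heterozygotes against wild type asked the same of a single mutant copy. In edgeR 0 of 71 members passed (0.0% of all genes), as in DESeq2 (0.0553% of all genes) and limma-voom (0.0%). Kcne2 was the 1 member (1.41%) at an unadjusted p below 0.05 in edgeR, against 4.1% of all genes. It had 198 counts over the heterozygotes and 0 over wild type, although 2 of the 4 heterozygote libraries were at 0. Against the same floor it was at least 65.6-fold higher by counting error alone (adjusted p = 0.999 in edgeR). The edgeR interval of Kcne2 ran from 1.97 to 15.26 on the log2 scale, and its place among the members rested on mutant libraries only. Of the members, 40 were higher and 31 lower, with a median of 0.05 against 0.0 for all genes. In 24 of 71 members, or 33.8%, the interval lay within a fold of 2, against 57.5% of all genes.

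Kcns3 averaged 43.6 ± 6.46 CPM in heterozygotes and 65.1 ± 19.8 CPM in wild type, a log2 difference of -0.58 (SE 0.27, interval -1.16 to 0.00, adjusted p = 0.999 in edgeR), or -0.35 without wild type replicate 4. It was 1 of 2 members, or 2.82%, whose heterozygote libraries all lay below wild type, against 1.76% of all genes, and in 0 members did they all lie above (1.48%). Kcnj6 (GIRK2), named for this after its values were seen, had 0, 1.40, 1.30 and 1.28 CPM in heterozygotes and 3.37, 2.82, 2.44 and 2.29 CPM in wild type. Its log2 difference was -1.45 (SE 0.94, interval -3.48 to 0.58), and it lay low in homozygote replicate 1 as well, at 0.972 CPM. Kcnj10 was at -0.67 (SE 0.31, interval -1.35 to 0.01), but at -0.28 without wild type replicate 3. Kcna2 was at -0.25 (SE 0.13, interval -0.53 to 0.02) and Kcna1 at -0.12 (SE 0.06, interval -0.26 to 0.01, adjusted p = 0.999 for each in edgeR). For Kcnj14 the difference was 0.73 (SE 0.37, interval -0.07 to 1.54), and 0.24 without the interneuron-poor libraries.

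**Figure D3:**
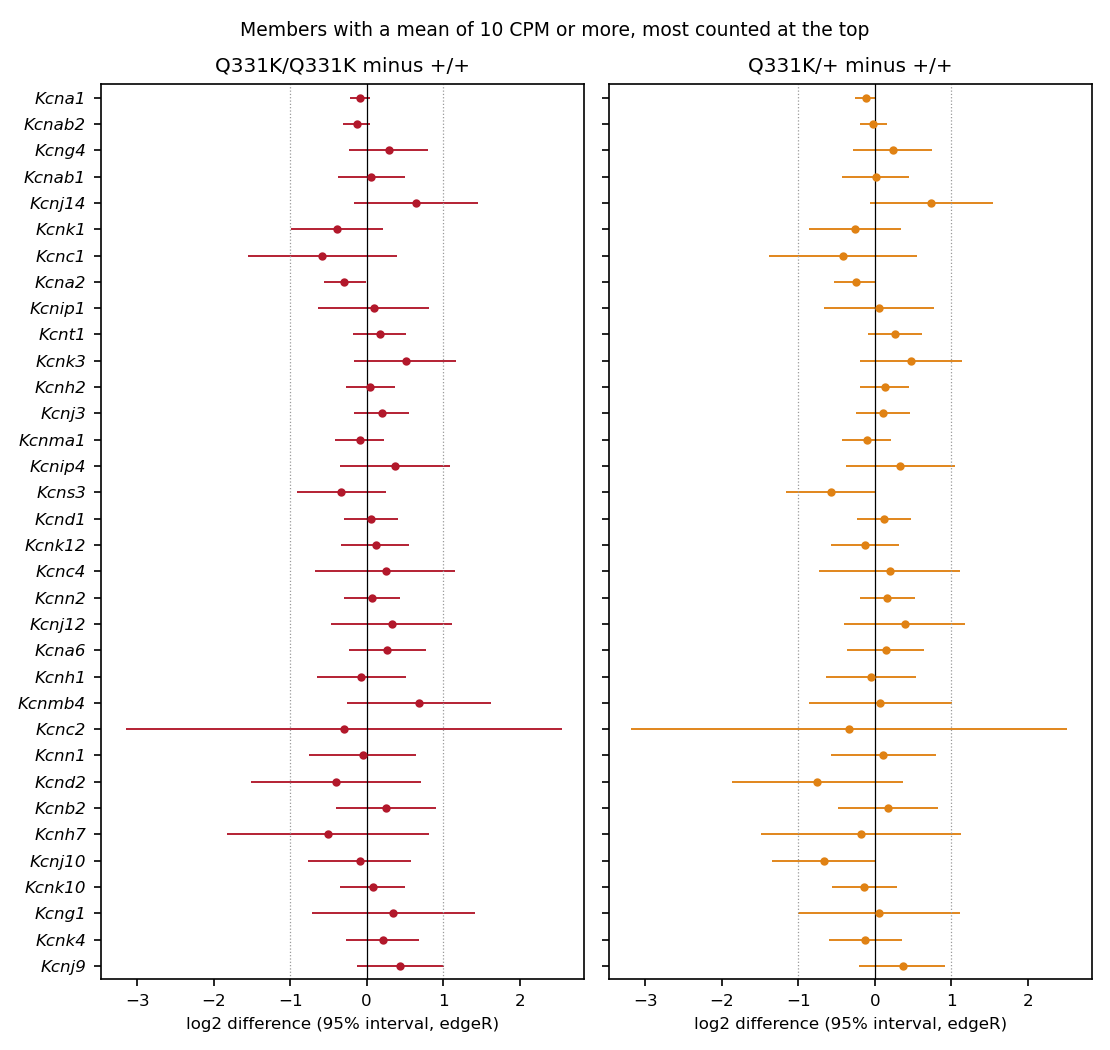
Log2 differences of 34 of the 37 members with a mean of 10 CPM or more, homozygotes minus wild type on the left and heterozygotes minus wild type on the right, as estimates with 95% intervals from edgeR and dotted lines at a fold of 2. The intervals of Kcna1 and Kcnab2 are narrow, that of Kcnc2 spans several log2 units, and only that of Kcna2 on the left lies wholly to one side of 0.

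Between homozygotes and heterozygotes, 0 of 71 members passed in edgeR (0.0% of all genes), DESeq2 (0.0184%) or limma-voom (0.0%). Kcnk5 alone (1.41%) had an unadjusted p below 0.05, against 2.97% of all genes, with 180 counts over the homozygotes and 3 over the heterozygotes. Its homozygote libraries held 105, 0, 0 and 75 counts, and wild type held 96 in all. Without the homozygotes Kcnk5 would fall below the minimum mean count of the members. Its place among them thus rested on the group where it was high, and this comparison is not independent of that rule. No member separated the groups (1.03% of all genes were higher and 0.998% lower without overlap). Kcnu1 was at 0.74 (SE 0.34, interval -0.01 to 1.48), or 0.41 without homozygote replicate 4, Kcnip3 at 0.81 (SE 0.41, interval -0.08 to 1.71) and Kcnj10 at 0.58 (SE 0.31, interval -0.10 to 1.26, adjusted p = 1 for each in edgeR). Kcns2 (Kv9.2), another modifier, averaged 0.0432 ± 0.0778 CPM in homozygotes and 0.522 ± 0.579 CPM in heterozygotes (adjusted p = 1 in edgeR). It had 12 counts over the homozygotes, 150 over the heterozygotes and 102 over wild type. Without the heterozygotes, where it was high, Kcns2 too would fall below the minimum mean count of the members, so the same limit applies. The members' median was 0.03 against 0.0 for all genes, with 38 higher and 33 lower, and 29 members, or 40.8%, had an interval within a fold of 2 (59.0% of all genes).

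A test of any genotype difference called 0 of 71 members in edgeR (0.0% of all genes), DESeq2 (0.0307%) and limma-voom (0.0%), with Kcne2 alone below an unadjusted p of 0.05 (adjusted p = 1 in edgeR), against 3.59% of all genes. A slope over 0, 1 and 2 mutant alleles also called 0 members in edgeR (0.00612% of all genes), DESeq2 (0.0676%) and limma-voom (0.00612%). Kcnq5 and Kcna2 were among the 3 members with an unadjusted p below 0.05, or 4.23% of members against 4.67% of all genes. Per allele, Kcnq5 differed by 0.65 on the log2 scale (SE 0.28, interval 0.05 to 1.25) and Kcna2 by -0.14 (SE 0.06, interval -0.28 to -0.01, adjusted p = 0.978 for both in edgeR). Without homozygote replicate 1 and heterozygote replicate 1 the slope was 0.37 for Kcnq5 and -0.11 for Kcna2. Kcnj9 and Kcnmb4 came next, at 0.22 (SE 0.13) and 0.34 (SE 0.20), and the slope of Kcnmb4 was 0.14 without homozygote replicate 1 and 0.62 without wild type replicate 1.

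By subfamily, homozygotes were higher than wild type in 6 of 10 Kir, 6 of 9 K2P, 3 of 5 Kv7 and 4 of 7 modifier members, and in 1 of 4 Kv3 and 1 of 4 SK and IK members. Heterozygotes were higher than wild type in 6 of 10 Kir, 3 of 9 K2P, 3 of 5 Kv7, 5 of 7 modifier, 3 of 4 SK and IK, and 1 of 4 Kv3 members. The comparisons share their wild type libraries, and none of these members passed. The summed Kir level was 364 ± 87.9 CPM in homozygotes, 367 ± 150 CPM in heterozygotes and 268 ± 36.3 CPM in wild type (SD, n = 4 each). Heterozygote replicate 1, at 586 CPM, stood above the other 3 heterozygotes, at 247 to 335 CPM, and the genotypes overlapped.

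The clearest differences lay between libraries and not between genotypes. In homozygote replicate 1 and heterozygote replicate 1, the libraries poor in interneuron markers, 14 members (19.7%) were above the range of the other 10 in both, against 10.3% of all genes, and 14 (19.7%) were below it, against 10.6%. Kcnj2 (Kir2.1) was at 13.4 CPM in homozygote replicate 1 and 15 CPM in heterozygote replicate 1, against 3.09 to 8.38 CPM in the others. In the same libraries Kcnj12 (Kir2.2) had 56.3 and 65.0 CPM (19.1 to 40.1 in the others) and Kcnj14 had 310 and 426 CPM (95.2 to 218). So 3 Kir2 members were high in both, as were Kcnq5, Kcnh5, Kcnip1, Kcnip4, Kcng4, Kcnab1, Kcnb2, Kcnk2, Kcnk3 and Kcnv1.

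Among those below the range in both were Kcnc1, Kcnc2, Kcnd2, Kcnh7, Kcnk1, Kcnk4, Kcns1, Kcns3, Kcnj6, Kcnj11, Kcna4, Kcne4 and Kcnmb2. Kcnc2 had the largest gap of these, and Kcns1 (Kv9.1) was at 0.624 and 0.408 CPM, against 1.68 to 3.22 CPM in the others. Kcne4, Kcnmb2 and Kcna4 were at 0 in both, where the lowest of the other 10 libraries held 0.29, 0.0395 and 0.015 CPM. Their gaps were 3.51, 1.27 and 0.62 log2 units, for Kcnmb2 and Kcna4 against a library that was itself close to 0. Near ties were Kcnk4 below the range and Kcnv1 above it, each by a gap of 0.01 log2 units. Kcna1 (1030 and 1010 CPM, against 954 to 1140 CPM), Kcna2 and Kcnma1 were among the 43 members that were not outside the range in both libraries. The part of the interneuron and motor neuron markers in these member levels was not tested.

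**Figure D4:**
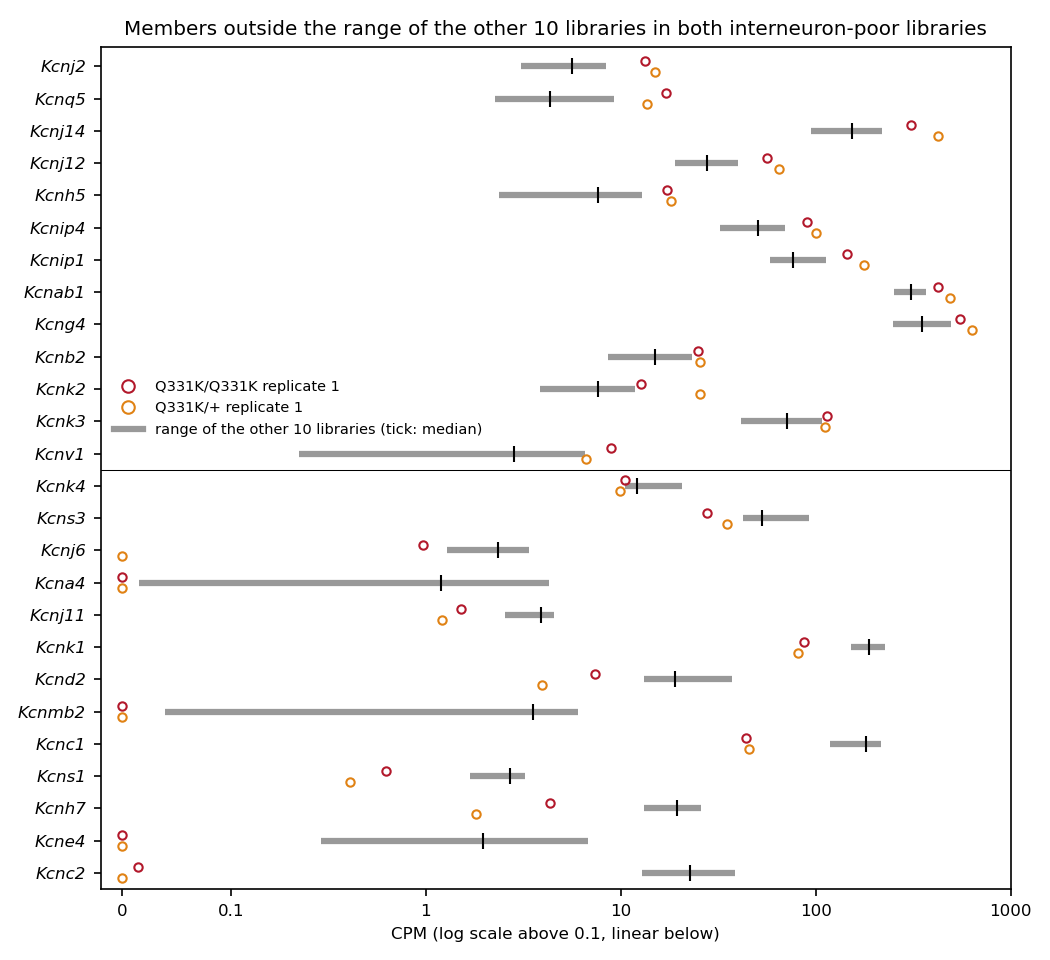
CPM in homozygote replicate 1 and heterozygote replicate 1 (open points) of 26 of the 28 members outside the range of the other 10 libraries (grey bars, median as a tick) in both, on an axis that is logarithmic above 0.1 and linear below. The 13 upper members lie to the right of their bars, the nearer open point by 0.67 log2 units or less, while Kcnc2 at the bottom lies at or near 0, against 12.9 to 38.5 CPM.

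Replicate 1 of wild type shared this pattern in some members. Among the other 10 libraries, it also had the lowest sum of inhibitory interneuron markers (421 CPM) and the highest of motor neuron markers (33900 CPM). Its excitatory interneuron markers summed to a value inside the range of the others. In 14 members (19.7%) replicate 1 was the highest library of its genotype in all 3 genotypes, against 8.94% of all genes, and in 7 (9.86%) it was the lowest, against 9.35%. For replicates 2, 3 and 4 the matching counts were 1, 1 and 0 members highest (1.16%, 1.59% and 2.25% of all genes) and 0, 2 and 2 members lowest (0.808%, 1.22% and 2.11%). Homozygote replicate 1 and heterozygote replicate 1 already stood apart, so part of the excess over replicates 2, 3 and 4 follows from them and not from wild type. The members highest in replicate 1 included Kcng4, Kcnj14, Kcnk3 and Kcnmb4, and those lowest Kcnc1, Kcnk1 and Kcnt1. Others went against it. Wild type replicate 1 was the highest wild type library for Kcnc2 at 33.3 CPM, Kcnd2 at 34.5 CPM, Kcnj6 at 3.37 CPM and Kcnk4 at 14.9 CPM, all of which lay below the range in both mutant replicates 1. The labels do not say what libraries with the same number share.

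Several members were at 0 in 1 library while another of the same genotype held 100 or more counts. They numbered 15 (21.1%), against 6.38% of all genes. By mean level, 6 of 12 members below 1 CPM did so (against 22.0% of all genes of that level), 8 of 22 between 1 and 10 CPM (36.4%, against 9.3%), 1 of 27 between 10 and 100 CPM (3.7%, against 0.343%) and 0 of 10 at 100 CPM or more (0.0459% of genes). Below 1 CPM the minimum mean count of the members acts on this share. Kcnc2 had 0, 2972, 1013 and 1744 counts in heterozygotes. Kcnmb2 had 0, 477, 233 and 267 counts in heterozygotes. In both the 0 fell in replicate 1, as it did for Kcne4, Kcna4, Kcnh6 and Kcnk13 in homozygotes and for Kcnj6 in heterozygotes. Other members had a 0 elsewhere. Kcna3 had 151, 0, 180 and 79 counts in wild type, Kcne1l had 293, 134, 130 and 0 counts in heterozygotes, and Kcna5 had 0, 0, 0 and 176 counts in homozygotes. The 15 also included Kcnn3, Kcnj8, Kcnk5 and Kcne2. Libraries were amplified from very little RNA without molecular identifiers, so counts of these genes are not independent molecules.

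Members varied more between wild type libraries than other genes of like level. At 100 CPM or more, the median coefficient of variation was 15.1% over 10 members (4.82% to 32.0%), against 8.91% over 2176 genes. Between 10 and 100 CPM it was 19.9% over 27 members, against 15.3% over 7000 genes, and between 1 and 10 CPM 46.8% over 24 members, against 36.5% over 4401 genes. The upper value of 32.0% belonged to Kcnj14. These shares are descriptions and were not tested.

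Of 40 tested genes from 10 lists of partners of potassium channels, such as the proteins that anchor Kv1 channels, the sodium-potassium pump and the chloride transporters, 0 passed in any pair of genotypes in edgeR. In homozygotes against wild type 15 were higher and 25 lower, and at an unadjusted p below 0.05 there were 0 higher and 1 lower (4.82% of all genes in either direction). Dpp6, which speeds Kv4 channels, had 169, 156, 159 and 161 CPM in homozygotes and 233, 187, 194 and 180 CPM in wild type (log2 difference -0.30, SE 0.10, adjusted p = 0.986 in edgeR). These values did not overlap. Of all genes, 2.12% lay wholly lower in homozygotes, and the partners were not counted for overlap. In heterozygotes against wild type 17 were higher and 23 lower, and at that level 0 were higher and 4 lower (4.1% of all genes). Slc12a2, which brings chloride into the cell, averaged 20.4 ± 3.60 CPM in heterozygotes and 29.9 ± 2.40 CPM in wild type (-0.55, SE 0.15, adjusted p = 0.999 in edgeR). The libraries of Slc12a2 did not overlap either, where 1.76% of all genes lay wholly lower in heterozygotes. Atp1b3, a beta subunit of the pump, averaged 57.1 ± 5.36 CPM in heterozygotes and 67.9 ± 5.21 CPM in wild type (-0.25, SE 0.09), and Adam11, a presynaptic organiser of Kv1 channels, 34.5 ± 5.22 and 47.7 ± 11.0 CPM (-0.46, SE 0.19). Between the mutants 23 were higher in homozygotes and 17 lower, with 2 higher and 0 lower at that level (2.97% of all genes). The 2 were Atp1b3 (0.27, SE 0.09) and Adam11 (0.42, SE 0.19), which averaged 68.8 and 46.3 CPM in homozygotes, close to wild type. Both comparisons share the heterozygote libraries, so for these genes they are not separate results.

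TDP-43 binds UG-rich RNA, mostly in long introns, so the length of the members was set beside that of other genes. The median span was 52.2 kb for the members and 21.1 kb for all tested genes, and 23 of 71 members (32.4%) spanned more than 100 kb, against 13.4%. In homozygotes against wild type, 12 of these long members were higher and 11 lower, with a median log2 difference of 0.06 and 1 (4.35%) at an unadjusted p below 0.05. The median of all long genes was 0.0, and 5.29% of them were below that p. In heterozygotes the medians were 0.01 for the long members and -0.02 for all long genes. A run of 6 TG pairs on the sense strand stood in the longest transcript of 7 of 71 members (9.86%) and 1340 of 16082 genes (8.33%). Introns were not searched. The 7 included Kcnj10, Kcna4, Kcnn3, Kcnmb4 and Kcnk9, and 4 of the 7 were higher and 3 lower in homozygotes.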

How the data were processed

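RNA of laser-captured cells was copied by template switching and cut into libraries by a transposase, per the labels' protocols. The authors deposited raw counts per gene. Per the submitters' processing notes, Trim Galore 0.4.3, HISAT2 2.0.5 and the mouse build GRCm38 were used. How reads were assigned to genes, and with which annotation and strand, is not given in the sources used here. Counts were scaled by TMM (factors 0.94 to 1.029) after filterByExpr in edgeR 4.0.16 (R 4.3.3), and a quasi-likelihood model with the 3 genotypes as groups was fitted to all 16338 genes. Tests were two-sided, with Benjamini-Hochberg adjustment over all genes at 0.05. A second model took the number of mutant alleles as a slope. Intervals are 95%. CPM per kb used exon bases of GENCODE M21 inside the gene span of the table, and 28 of 71 members had the same coordinates in both. Reads carry no molecular identifiers, so floors cover counting error only.

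Members, subfamilies and lists were chosen with earlier results of these data known. Named members were the 2 with the most counts per subfamily, the 5 smallest p-values per comparison, those nearest the threshold, the 5 per direction furthest outside the range in homozygote replicate 1 and heterozygote replicate 1, those at 0 beside 100 or more counts, and partner genes at an unadjusted p below 0.05. Others were named after their values were seen. Some members enter every count and test but are not reported by name here. The steps were tested on simulated counts. Alternatives were DESeq2 1.42.0, limma-voom (limma 3.58.1) with quality weights, other size factors, no filter and a stricter filter, a replicate block, only the 8 libraries compared, and libraries left out.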

Additional observations from a re-analysis of the deposited data

Results flagged for a closer look

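Within each genotype, the library furthest from the other 3 was compared with their range for every member, in CPM. Of 213 groups of 4 libraries, 26 had a library whose gap to its neighbour, as a share of the whole range, exceeded Dixon's 95% critical value for 4 values. That is 12.2% of the groups, against 8.57% over all tested genes. For normally distributed values chance gives about 1 in 20, but CPM with zeros is not so distributed, and in 4 of the 26 the other 3 libraries were at 0, which passes by construction. Of these libraries 13 were replicate 1, 4 replicate 2, 4 replicate 3 and 5 replicate 4.

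In heterozygote replicate 1 the high values were Kcng4 at 635 (346 to 347 in the other 3), Kcnip1 at 177 (58.6 to 78.8), Kcnk9 at 17.8 (3.54 to 5.75) and Kcnq5 at 13.6 (4.27 to 5.33). The low values there were Kcng2 at 0.408 (0.909 to 0.997) and Kcnj6 at 0 (1.28 to 1.4). In homozygote replicate 1 Kcnj11 was low at 1.52 (3.83 to 4.01), and Kcns2 was high at 0.16 (0 to 0.0132). Wild type replicate 1 was low for Kcna1 at 1020 (1120 to 1140) and Kcnc1 at 131 (205 to 216). It was high for Kcnc4 at 58.9 (21.1 to 27), Kcnk3 at 108 (41.2 to 47.4) and Kcnk5 at 1.14 (0 to 0.149).

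In homozygote replicate 2 Kcnd1 was low at 32.8 (47.2 to 48.5), while Kcnip3 at 8.86 (5.37 to 5.84), Kcnj8 at 3.77 (0 to 0.223) and Kcnip2 at 0.893 (0 in the others) were high. Kcne2 was high in homozygote replicate 3 at 0.942 (0 to 0.16). In homozygote replicate 4 Kcna5 at 2.32 and Kcne3 at 0.539 had counts where the others had 0.

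Heterozygote replicate 3 was low for Kcnj9 at 9.22 (13.8 to 14.4) and Kcnk12 at 33.1 (40.7 to 41.5). Heterozygote replicate 4 was high for Kcnj10 at 15.1 (10.6 to 11.2), Kcna4 at 1.27 (0 to 0.101) and Kcna3 at 0.7 (0 in the others). Wild type replicate 3 was high for Kcnh6 at 4.04 (0.618 to 0.864).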

How the results depend on the processing

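The count of members past the adjusted threshold was 0 in every comparison under each of the 19 or 20 alternatives run for it, and the smallest adjusted p of any member and setting was 0.310, for the allele slope. The number of members was 73 with a mean of 10 or more counts and 64 with 50 or more. Deviations from the genotype means correlated at 0.11, 0.11 and 0.45 between the libraries numbered 1 and at -0.05 to 0.1 between the other same-numbered libraries, and the labels do not say what a number stands for. With the replicate block, 0 members passed and 9 had an unadjusted p below 0.05 in homozygotes against wild type, against 3 without it. The share of all genes below that p under the block was not taken, so the rise is not a result about the members. The block also turned Kcnab1 in heterozygotes against wild type to -0.03.

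Kcnab1 in heterozygotes against wild type was at -0.15 in limma-voom and at -0.24 without homozygote replicate 1 and heterozygote replicate 1. It ran from -0.24 to 0.11 with single libraries left out, and turned without heterozygote replicate 1 or wild type replicates 3 or 4. In homozygotes against wild type Kcnab1 was at -0.01 in limma-voom and at -0.05 without those libraries, and ran from -0.05 to 0.19, turning without homozygote replicate 1. Kcnab2 in heterozygotes ran from -0.05 to 0.01. Kcng4 in heterozygotes was at -0.04 without those libraries and ran from -0.05 to 0.42, turning without heterozygote replicate 1. The cause was not tested. Kcnq5 in homozygotes ran from 0.73 to 1.61, lowest without homozygote replicate 1, and was at 0.83 in limma-voom. The median of the members in homozygotes ran from -0.08 to 0.12. The other 573 single values kept their direction and side of the threshold. Members below 1 CPM rest on few counts, and a 2-fold difference there was not detectable.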
